A study of Mus musculus with 24 samples.

Results

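The windows of mouse chromosome 11 that differ in 5-hydroxymethylcytosine (5hmC) between 2 ESC lines are described here. They are every window on this chromosome in the pair of deposited lists of differentially 5-hydroxymethylated regions (DhMRs), 1310 of 20726 windows in all. Of these, 814 were higher in Wt25, which is 0.133% of the 200 bp bins of the chromosome, against 0.0888% of the bins of all listed chromosomes, and 496 were higher in AA10, which is 0.0813% against 0.0633%. The bins that passed the minimum read count of the authors' test are not known, so these percentages are over all bins. The windows were selected on the 5hmC difference itself, and the chromosome was chosen because the direction of that difference changes along it, so direction by position is given below as a description with no test. The chromosome was divided at its midpoint, position 61041271 of the GRCm38 assembly, into a proximal side, which starts at the centromere, and a distal side. A window belongs to the side of its own midpoint.

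In both lines, which are mouse ESCs grown in 2i with LIF and mixed between C57BL/6J and 129V, *Tet1*, *Tet2* and *Tet3* are knocked out. Wt25 expresses Flag-tagged human wild-type Tet3 and AA10 the same protein with a pair of phosphorylated serines of its catalytic domain changed to alanine (phosphor-mutant). Each line came from lentiviral infection and puromycin selection and is 1 clone, so the Tet3 construct and the clone cannot be told apart. 5hmC was measured by 5hmC-DIP-seq, in which an antibody pulls down DNA fragments that carry 5hmC, in 3 libraries of each line. The lists pool these libraries and hold positions only. No window has a read count, a fold change, a *P*-value or a value per library, so the depth and the error of a single window are unknown, and the 95% Wilson intervals below cover the counting of windows only. Neighbouring windows share fragments and are not independent.

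Tet enzymes oxidize 5-methylcytosine, which in mammals sits mostly at CpG dinucleotides, to 5hmC and further oxidized forms that can be replaced by unmodified cytosine. In ESCs, 5hmC is known from gene bodies and from regulatory elements outside promoters. Because the antibody reads a whole fragment, a window shows that the pulled-down DNA differed somewhere near its bases, not which CpG carried 5hmC.

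The windows with the most CpGs inside the gene that held most windows of its side and direction show what sequence was listed, and 3 of them are given. They are written 5′ to 3′ on the forward strand of GRCm38.p6, with each CpG in capitals. For AA10 these were an intron of *Ap1b1* at chr11:5032803-5033000 and an intron of *Npepps* at chr11:97259403-97259600, and for Wt25 an intron of *Ranbp17* at chr11:33405003-33405200. The last window stands at the position that best separates the directions on the chromosome. It is higher in AA10, at chr11:5445403-5445600, and lies in the promoter of *Znrf3*, 654 bp upstream of its start.
Ap1b1, proximal, AA10: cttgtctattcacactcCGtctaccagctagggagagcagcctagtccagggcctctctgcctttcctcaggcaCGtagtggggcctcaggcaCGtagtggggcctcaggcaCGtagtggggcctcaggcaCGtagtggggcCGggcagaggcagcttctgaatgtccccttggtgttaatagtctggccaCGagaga
Ranbp17, proximal, Wt25: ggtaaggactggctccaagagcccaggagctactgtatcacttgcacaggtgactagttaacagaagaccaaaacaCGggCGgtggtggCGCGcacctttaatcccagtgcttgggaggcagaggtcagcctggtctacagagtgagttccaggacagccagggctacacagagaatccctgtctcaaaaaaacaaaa
Npepps, distal, AA10: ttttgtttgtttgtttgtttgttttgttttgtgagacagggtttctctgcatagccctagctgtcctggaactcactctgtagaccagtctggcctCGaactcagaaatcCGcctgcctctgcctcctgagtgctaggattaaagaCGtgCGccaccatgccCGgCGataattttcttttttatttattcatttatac
Znrf3 promoter, AA10: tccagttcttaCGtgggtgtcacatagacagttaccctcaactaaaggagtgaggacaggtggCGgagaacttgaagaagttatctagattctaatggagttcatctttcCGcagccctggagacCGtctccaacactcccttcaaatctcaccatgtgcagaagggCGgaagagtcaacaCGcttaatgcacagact

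The *Ap1b1* window held 7 CpGs and a unit of 19 bases repeated 4 times, with no base marked as a repeat in the assembly. The *Npepps* window held 6 CpGs and consisted of marked repeat alone, and the *Ranbp17* window held 4 CpGs with 62.1% of its bases marked. At the boundary, the AA10 window held 6 CpGs. TG repeats of 20 or more bases, searched as TG, GT, CA or AC units so that both strands were covered, were in 1.76% of the chromosome's windows and in 2.16% of all its bins, so repeats of this kind were still present after the authors' filter on tandem repeats.

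On the proximal side, 215 of 485 windows were higher in Wt25, or 44.3% (95% interval 40.0% to 48.8%). On the distal side, 599 of 825 were, or 72.6% (69.5% to 75.5%). The difference was 28.3 percentage points (22.8 to 33.5, from the Wilson bounds), between an AA10 majority and a Wt25 majority. *Kcnj12*, which encodes an inward rectifier potassium channel, spans the midpoint and held no window. The 3 windows nearest to it on the proximal side, 154 to 172 kb away, were higher in AA10, and of the 3 nearest on the distal side, 87.4 to 545 kb away, the closer ones were higher in Wt25 and the farthest in AA10.

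Each direction changed differently across the midpoint. Windows higher in Wt25 numbered 3.52 per Mb on the proximal side and 9.81 per Mb on the distal side, a ratio of 2.79. RefSeq genes rose from 9.63 to 22.1 per Mb, a ratio of 2.29. Windows higher in AA10 did not follow, with 4.42 per Mb on the proximal and 3.7 per Mb on the distal side. The lengths include unsequenced bases, most of them on the proximal side. As the plot of windows per Mb shows, the AA10 windows of the proximal side were piled at a single place.

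**Figure D1:**
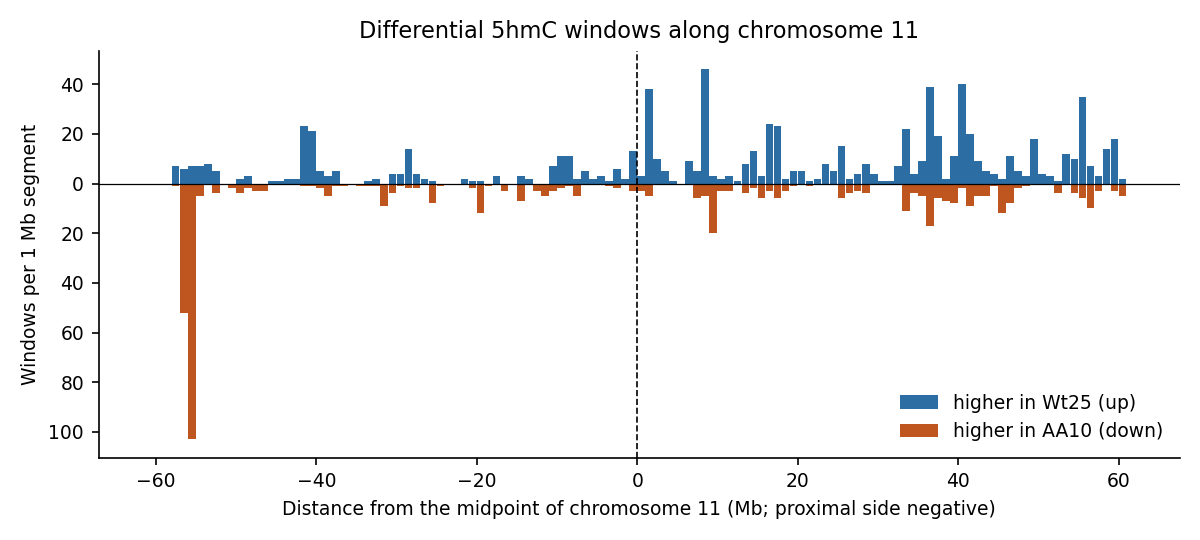
Number of DhMRs in each 1 Mb segment of chromosome 11, with windows higher in Wt25 drawn upward in blue and those higher in AA10 downward in orange, against the distance from the chromosome's midpoint in Mb (dashed line). The AA10 windows peak in neighbouring segments near the proximal end, while Wt25 windows are spread over the distal side.

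That place was a streak, which here means consecutive windows of one direction with none of the other between them. It held 154 windows higher in AA10 and ran from 4497803 to 5445600, a stretch of 948 kb. It made up 1.55% of the length of the proximal side and 57.0% of its 270 AA10 windows. Without it, 116 AA10 windows were left on the proximal side, or 1.93 per Mb, and 215 of 331 windows, or 65.0% (59.7% to 69.9%), were higher in Wt25. The difference from the distal side was then 7.65 percentage points (1.8 to 13.7). Outside the streak, AA10 windows were 1.92 times and Wt25 windows 2.74 times as dense on the distal as on the proximal side, so both followed the same order as the genes. The AA10 majority of the proximal side thus lay in this streak. This alternative was chosen after the windows had been seen.

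The streak is by definition bounded by Wt25 windows, and these also prevailed in the 1 Mb on each side of it. In the 1 Mb before it, all 10 windows were higher in Wt25, among them a window 484 bp upstream of the start of *Osm* and one in an intron of *Lif*, both of which encode cytokines of the interleukin-6 family. The last of them ended 39.4 kb before the streak. The first Wt25 window after it began 5.4 kb beyond its end, and in the 1 Mb that followed 7 of 10 windows were higher in Wt25. The position that best separated the directions on the whole chromosome, by the likelihood of a single change in the Wt25 share, was this distal edge, at 5.45 Mb, and not the midpoint: 7.74% of the 168 windows before it and 70.1% of the 1142 after it were higher in Wt25.

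Inside the streak, the windows were 162 per Mb, and they were unevenly placed. The 3 fullest segments of 50 kb, from 5000001 to 5150000, held 40, 30 and 21 windows, which is 59.1% of the windows in 15.8% of the length. As many windows lay in a pair of dense runs, each a row of 20 or more windows of the same direction with no gap above 10000 bp: 68 windows in 73.4 kb from 5006203 to 5079600, and 23 windows in 48.2 kb from 5091803 to 5140000. A smaller group of 24 windows stood between 4600001 and 4700000, as 10 and 14 windows per 50 kb. The 2 segments between 4750001 and 4850000 held none, and the 5 segments after 5200001 held 1 or 2 each.

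**Figure D2:**
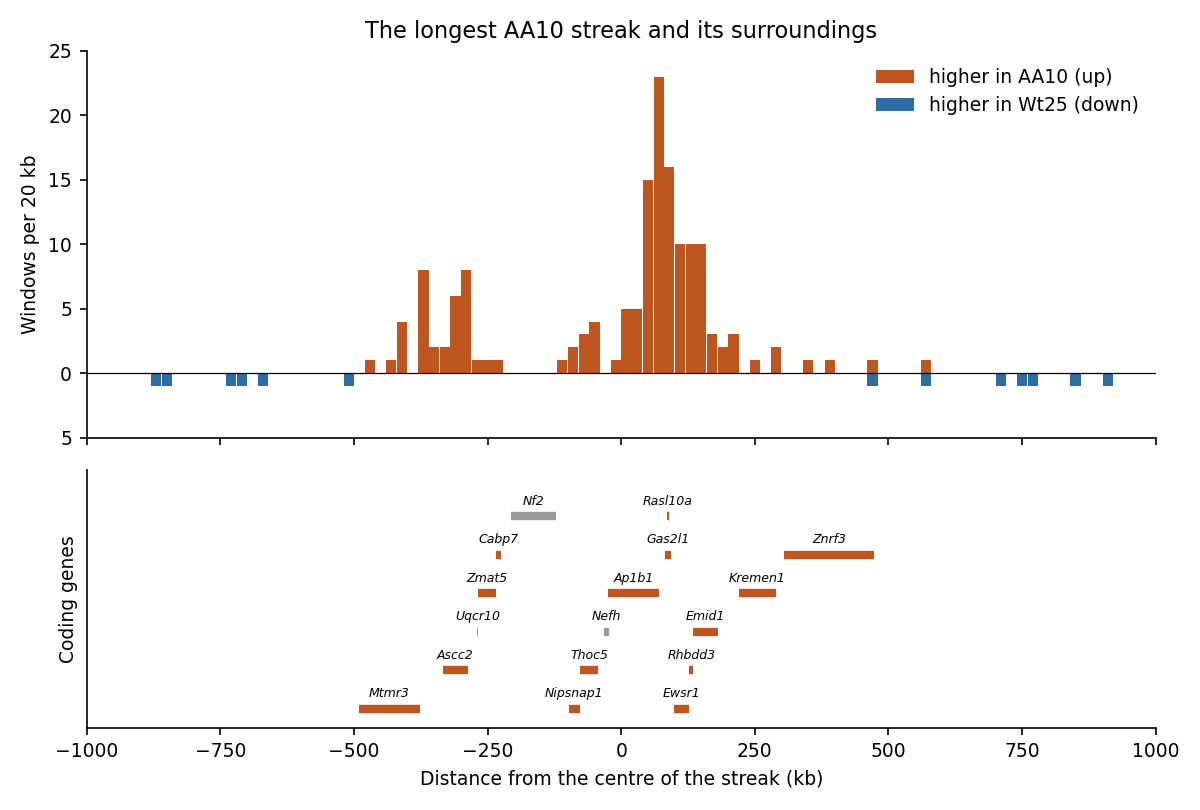
Windows per 20 kb around the longest AA10 streak (upper panel; higher in AA10 upward, higher in Wt25 downward) and the coding RefSeq genes that it overlaps (lower panel; orange with a window of the streak, grey without), against the distance from the centre of the streak in kb. The highest bars stand over Ap1b1, Gas2l1, Ewsr1 and Emid1. By the definition of a streak, Wt25 windows appear only outside it.

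Of 17 coding RefSeq genes that the streak overlaps, 14 held at least 1 of its windows. *Ap1b1* (4947521 to 5042794), which encodes a large subunit of the AP-1 clathrin adaptor that sorts cargo between the Golgi and endosomes, held 35 windows, the most of any gene on the chromosome. Of these, 29 were in introns and 6 in coding exons, and all lay from 4962403 to 5039800. *Emid1* (5106265 to 5152230), a gene for an extracellular protein with an EMI domain, held 18 windows. *Ewsr1* (5069687 to 5099096), which encodes an RNA-binding protein of the FET family known from fusions in Ewing sarcoma, held 14. These 3 genes held 43.5% of the streak's windows.

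*Gas2l1*, whose product links actin filaments and microtubules, had the highest density among the genes with 5 or more windows, with 8 windows in 11.2 kb. They were also the richest in CpG, with a mean of 11.4 CpGs per window against 3.25 ± 2.74 (SD, n = 154 windows) over the streak. *Rasl10a*, a gene for a small Ras-like GTPase, lies inside *Gas2l1* on the opposite strand. Of the 8 windows, 2 lay in the promoter of *Rasl10a* and 2 others inside *Rasl10a*, so they cannot be assigned to either gene. *Ascc2*, which encodes a ubiquitin-binding subunit of the ASCC complex, held 10 windows, *Mtmr3*, for a phosphoinositide phosphatase, 7, and *Thoc5*, for a subunit of the THO complex of mRNA export, 5. *Nipsnap1* held 3, *Rhbdd3* 2, and *Zmat5* and *Cabp7* 1 each.

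The remaining coding genes of the streak held few windows or none. *Znrf3*, which encodes a ubiquitin ligase that removes Frizzled receptors and so dampens Wnt signalling, held 2 windows in 169 kb, beside the one in its promoter, and *Kremen1*, for a co-receptor of the Wnt inhibitor Dkk1, held 1 in 70.1 kb. *Nf2*, the gene of the tumour suppressor merlin, held none in 83.7 kb, and neither did the shorter genes *Nefh* (9.31 kb), for the heavy neurofilament chain, and *Uqcr10* (2.38 kb), for a subunit of respiratory complex III.

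The streak's windows were compared in sequence with the 116 AA10 windows of the proximal side outside it and with all Wt25 windows of the chromosome. Their GC content was 49.2% ± 6.76 (SD), against 46.0% ± 6.05 and 48.5% ± 6.48. Of them, 21.4% lay within 5 kb of a transcription start. This was more than the 9.48% of the AA10 windows outside the streak, but less than the share of all Wt25 windows of the chromosome. Bases marked as repeats made up 31.2%, against 31.2% and 28.8%. For 88.8% of their 32-mers the assembly holds no other copy, against 85.7% and 90.9%. The authors kept only reads placed once, so their lists favour sequence without other copies. These shares therefore do not show how reads of the region were assigned. The region itself had 46.2% GC, against 47.0% in the 1 Mb before and 46.6% in the 1 Mb after it. Of the streak's windows, 53.2% lay in introns, which make up 73.1% of its bins, 25.3% were intergenic, against 16.1% of its bins, and 17 of the 154 lay at transcription termination sites (100 bp before to 1000 bp after a transcript's end), which make up 2.6% of the bins. The genomic input of both lines was not analysed here, so more 5hmC in AA10 and more copies of the region in AA10 cannot be told apart for the streak.

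Along the whole chromosome, 8 of 25 segments of 5 Mb had an AA10 majority, 7 of 12 centred on the proximal and 1 of 13 on the distal side. Without the streak, 5 of the 12 proximal segments had one. The segments did not fall into a proximal and a distal state, as the plot of the Wt25 share by segment shows, but alternated on the proximal side between shares of 19.4% to 26.3% and shares of 75.7% or more. Most of these proximal segments held few windows, so their intervals are wide.

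**Figure D3:**
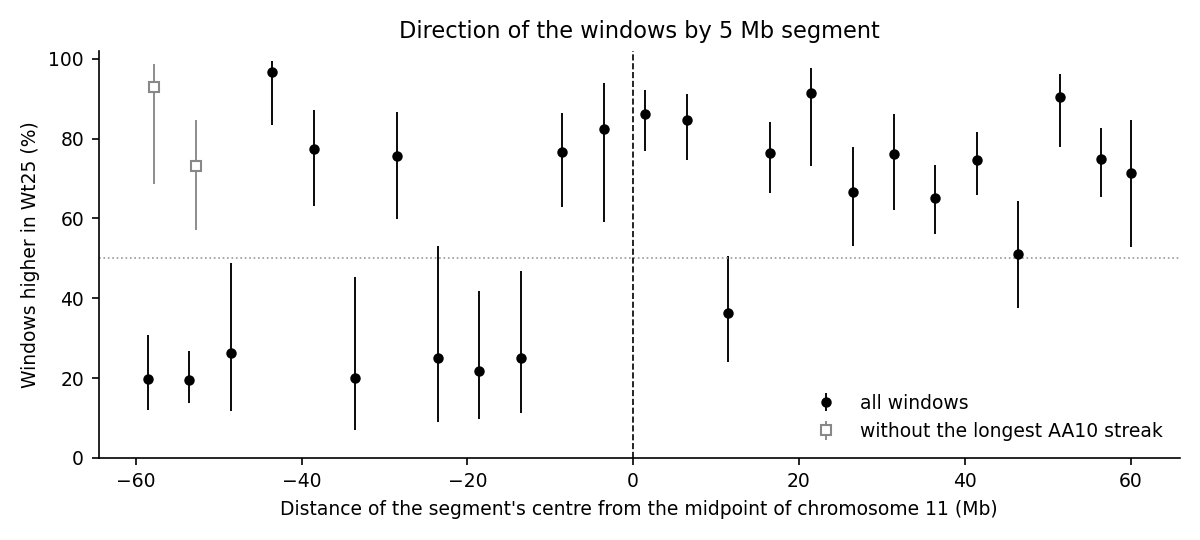
Share of windows higher in Wt25 in each 5 Mb segment of chromosome 11 (points, with 95% Wilson intervals as bars) against the distance of the segment's centre from the chromosome's midpoint in Mb, with open squares for the segments that change when the longest AA10 streak is left out. The distal segments lie at or above 50% with 1 exception at 36.2%, and the proximal ones fall into low and high shares.

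The first 15 Mb held 224 windows, 20.1% (15.4% to 25.8%) of them higher in Wt25, and 64.3% (52.6% to 74.5%) of the 70 left without the streak. From 15 to 25 Mb the direction turned, with 63 of 74 windows, or 85.1% (75.3% to 91.5%), higher in Wt25. Here 81.1% of the windows were intergenic, against 72.6% of the bins, and the median distance to a transcription start was 41.3 kb. Most of them belonged to the second-longest streak of the chromosome, 44 Wt25 windows in 827 kb from 19675803 to 20503000, of which 38 were intergenic and the genes *Actr2* and *Spred2* held 2 each. *Actr2* encodes a subunit of the Arp2/3 complex of actin assembly and *Spred2* an inhibitor of Ras signalling.

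From 25 to 30 Mb, 12 of 15 windows were higher in AA10, and 5 of them lay in *Rtn4*, the gene of the neurite growth inhibitor Nogo, 3 in coding exons. From 30 to 35 Mb, 28 of 37 windows, or 75.7% (59.9% to 86.6%), were higher in Wt25. *Ranbp17*, for a nuclear transport receptor, held the most of any gene there, 4 in Wt25 and 2 in AA10, and 67.5% of the 32-mers of its windows were unique.

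Outside the streak, the proximal segments with an AA10 majority were those from 10 to 15 Mb, with 14 of 19 windows, from 25 to 30 Mb, and from 35 to 50 Mb, which was the longest. The last held 55 windows in 15 Mb, or 3.67 per Mb, of which 42 were higher in AA10 and 23.6% (14.4% to 36.3%) in Wt25. Its windows were far from transcription starts, at a median of 68.8 kb. The fullest 1 Mb of it, from 41 to 42 Mb, held 13 windows, all intergenic and 12 of them higher in AA10. *Slit3*, which encodes a secreted ligand of Robo receptors in axon guidance, held 7 AA10 windows and 1 Wt25 window, all in introns, all in unique sequence, and scattered over 459 kb. *Ebf1*, for a transcription factor of B cells and olfactory neurons, held 3 AA10 windows, and *Mapk9*, for the kinase JNK2, and *Flt4*, for the receptor VEGFR3, held 2 each.

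From 50 Mb on, Wt25 windows prevailed. Between 50 and 70 Mb, 180 of 216 windows, or 83.3% (77.8% to 87.7%), were higher in Wt25, and between 75 Mb and the end 465 of 642, or 72.4% (68.8% to 75.7%). Of 13 Wt25 streaks with 20 to 44 windows, 11 lay on the distal side, spread from 61804203 to 120500200, and there were 2 AA10 streaks of at least 20 windows on the whole chromosome. A run of this density was found once in Wt25, with 21 windows in 58.0 kb from 97902003 to 97960000, against the 2 in the AA10 streak.

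*Ncor1*, which encodes a corepressor of nuclear receptors that recruits histone deacetylase, held 27 Wt25 windows, the most in that direction, 24 of them in introns over 107 kb. Their sequence was less unique than most, with 75.3% of 32-mers without another copy and 46.7% of bases in marked repeats. *Plxdc1* and *Fbxo47*, close to each other within a streak of 43 Wt25 windows from 97742203 to 98099800, held 16 and 11. *Plxdc1* encodes a plexin domain protein of the cell surface and *Fbxo47* an F-box protein of meiosis. *Map2k6*, for a kinase that activates p38, held 10, and *Cntrob*, for a centriole protein, and *Phf12*, for a PHD finger protein of a Sin3 corepressor complex, 7 each. *Rara*, the gene of retinoic acid receptor alpha, held 6 in fully unique sequence, 3 of them in promoters.

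AA10 windows were found in every segment of the distal side, and only a part of them is described here. The segment from 70 to 75 Mb was the 1 distal segment with an AA10 majority, with 30 of 47 windows higher in AA10. In Wt25 were 36.2% (24.0% to 50.5%), an interval that includes 50%. Most of the 30, namely 20, lay from 70 to 71 Mb, where 3 windows were higher in Wt25. The 5 Mb segment was rich in genes, at 28.8 per Mb, and its windows were near starts, at a median of 5.7 kb. *Camta2*, for a calmodulin-binding transcription activator, and *Kif1c*, for a kinesin, held 3 AA10 windows each. The longest AA10 streak of the distal side had 20 windows from 96793403 to 97488200 and ended 254 kb before the Wt25 streak that holds *Plxdc1* and *Fbxo47*. In it *Npepps*, which encodes the puromycin-sensitive aminopeptidase, held 11 AA10 windows. The windows in *Npepps* were low in GC, at 37.5%, and 63.3% of their bases were marked repeats. *Ankrd40* held 3 AA10 windows, all in its 3′ UTR.

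**Figure D4:**
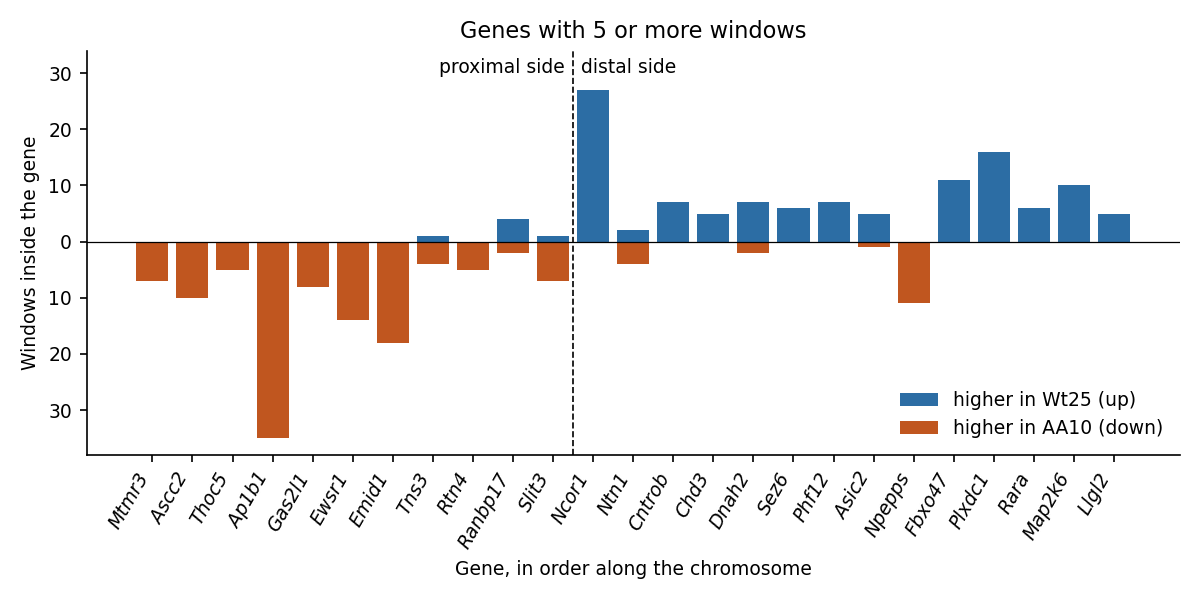
Number of windows inside each of the 25 genes with 5 or more, in order along chromosome 11, with windows higher in Wt25 upward in blue, those higher in AA10 downward in orange, and the midpoint as a dashed line. Genes left of the line hold more AA10 windows except Ranbp17, and genes right of it more Wt25 windows except Npepps and Ntn1.

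Windows inside a gene mostly shared a direction. Of 1937 RefSeq genes on the chromosome, 360 (18.6%) held a window, and the share was alike on the proximal side, 107 of 588 or 18.2%, and the distal side, 253 of 1349 or 18.8%. Of the 360, 225 held Wt25 windows only, 116 AA10 windows only and 19 both, but 223 held a single window and could hold 1 direction only. Counted as genes, the proximal side was nearly even, with 54 genes of Wt25 windows only and 49 of AA10 windows only, while the distal side had 171 and 67. At least 2 windows in each direction were found in 4 genes. *Dnah2*, for a dynein heavy chain of cilia, held 7 Wt25 and 2 AA10 windows. *Ntn1*, for the axon guidance ligand netrin-1, held 2 and 4, *Ranbp17* 4 and 2, and *Pitpnc1*, for a phosphatidylinositol transfer protein, 2 and 2. These windows were in introns, apart from 1 in a coding exon of *Dnah2*.

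Where windows lay relative to genes differed between the directions on the proximal side. There 56.3% of AA10 windows (50.3% to 62.1%) were in an exon or intron, against 35.8% of Wt25 windows (29.7% to 42.4%) and 35.5% of all bins of that side. Of those 305206 bins, 289021 held known sequence. The rest were kept and, where outside genes, count as intergenic. Without the streak the AA10 value was 50.0% (41.0% to 59.0%, n = 116), which was still above the share of all bins, with an interval that overlaps that of the Wt25 windows. On the distal side the values were 54.0% (47.5% to 60.4%) for AA10, 57.9% (53.9% to 61.8%) for Wt25 and 53.4% for all bins. Wt25 windows of the proximal side were thus placed like the bins around them, 61.4% intergenic against 62.2%, while AA10 windows lay in genes more often than the bins. Within the streak the order was the opposite, with 61.0% of windows and 78.6% of bins in an exon or intron. Of the 152 AA10 windows behind the 56.3% of the proximal side, 94 lay in the streak. Promoters held 5 AA10 windows (1.85%) and 5 Wt25 windows (2.33%) on the proximal side, where they make up 1.18% of bins, and 10 (4.42%) and 29 (4.84%) on the distal side, where they make up 2.64%.

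Mean CpGs per window were 3.16 ± 2.51 (SD, n = 270) for AA10 and 2.86 ± 2.15 (n = 215) for Wt25 on the proximal side, and 3.52 ± 2.76 (n = 226) and 3.35 ± 2.36 (n = 599) on the distal side. All 4 means were above those of all bases, 1.59 CpGs per window length on the proximal and 2.27 on the distal side. When the windows were divided into 4 classes of GC content, the Wt25 share was between 36.4% and 50.0% in the proximal classes and between 68.1% and 75.8% in the distal ones. Without the streak, the proximal share was 59.0% and 56.0% in the classes of lower GC and 72.5% and 77.5% in those of higher GC, so it was higher in windows of higher GC. The intervals of the sides then overlapped in every class but the second, where they were 45.8% to 65.8% on the proximal and 67.6% to 79.4% on the distal side.

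Gene groups of the chromosome, listed with earlier results of these data known, are given by their counts. The share of all its genes with a window was 18.6%, and gene length was not taken into account. Of all its windows, 62.1% were higher in Wt25. Most group members with windows lie on the distal side, where that share was 72.6%, against 44.3% on the proximal side. Of 29 chromatin and DNA repair genes, 9 held windows, 40 in Wt25 and 4 in AA10, and 27 of the 40 were those of *Ncor1*. The rest included *Chd3*, for a NuRD remodeller, with 5 Wt25 windows, *Ezh1*, for a Polycomb methyltransferase, with 3, and *Kansl1*, for a subunit of a histone acetyltransferase complex, with 3 in AA10. Of 19 genes of ESC self-renewal and growth signalling, 7 held windows, 8 in Wt25 and 3 in AA10. *Stat3*, which transmits the LIF signal, held 2 Wt25 and 1 AA10 windows, *Lif* 1 in Wt25 and *Mapk9* 2 in AA10.

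Of 22 neuronal channels and receptors, 8 held windows, 14 in Wt25 and 6 in AA10. *Asic2*, for an acid-sensing channel, held 5 and 1, *Kcnab3*, for a potassium channel subunit, 4 and 0, and *Cacna1g*, for a T-type calcium channel, 1 and 3. Of 17 genes of axon guidance and cell adhesion, 7 held windows, 19 in Wt25 and 16 in AA10. *Plxdc1*, the plexin domain protein of the cell surface named above, gave 16 of the 19, and *Slit3* and *Ntn1* 11 of the 16. Counted as genes, *Plxdc1* was the 1 with Wt25 windows only, against 4 with AA10 windows only and 2 with both. Of 15 genes of the neuronal cytoskeleton and neuronal RNA-binding proteins, 6 held windows, 4 in Wt25 and 7 in AA10, among them *Msi2* with 1 and 3 and *Mapt*, the gene of tau, with 2 in AA10.

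Of 30 developmental transcription factors, 6 held windows, 10 in Wt25 and 4 in AA10, with *Rara* and *Ebf1* first in each direction. Among the Wt25 windows, the 1 at 98768603 to 98768800 lies in the 3′ UTR of both *Nr1d1* and *Thra* and is counted for each. The 10 *Hoxb* genes held 3 windows, all in Wt25, in introns of *Hoxb3* and *Hoxb7*. Of 12 Wnt, FGF, Notch and BMP signalling genes, 3 held a window each, *Fgf11* in Wt25 and *Axin2* and *Wnt3* in AA10. Of 29 genes of lipid and sugar metabolism, 5 held windows, 4 in Wt25 and 3 in AA10. Of 4 imprinted genes, *Grb10* held 2 Wt25 windows. The 12 chemokine genes held no window. A window was found in 1 of 11 cytokine cluster genes, 1 of 85 olfactory receptor genes, 4 of 50 keratin genes and 2 of 10 schlafen genes.

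Chromosome 11 was not alone in this pattern. Over the 20 chromosomes with 100 or more windows, its difference of 28.3 percentage points between the sides was the third in size, after chromosomes 12 (34.2) and 18 (31.1), and the other 19 ranged from -26.5 to 34.2. When each chromosome's own longest streak was left out, chromosome 11 ranked 9 with 7.65 points, and the values for chromosomes 12 and 18 were -7.19 and 2.68. The streak of chromosome 11 ranked 6 over all chromosomes by its number of windows, behind 4 of AA10 and 1 of Wt25 windows. It was spread more thinly than those of AA10, with 162 windows per Mb against 276 to 1952.

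**Figure D5:**
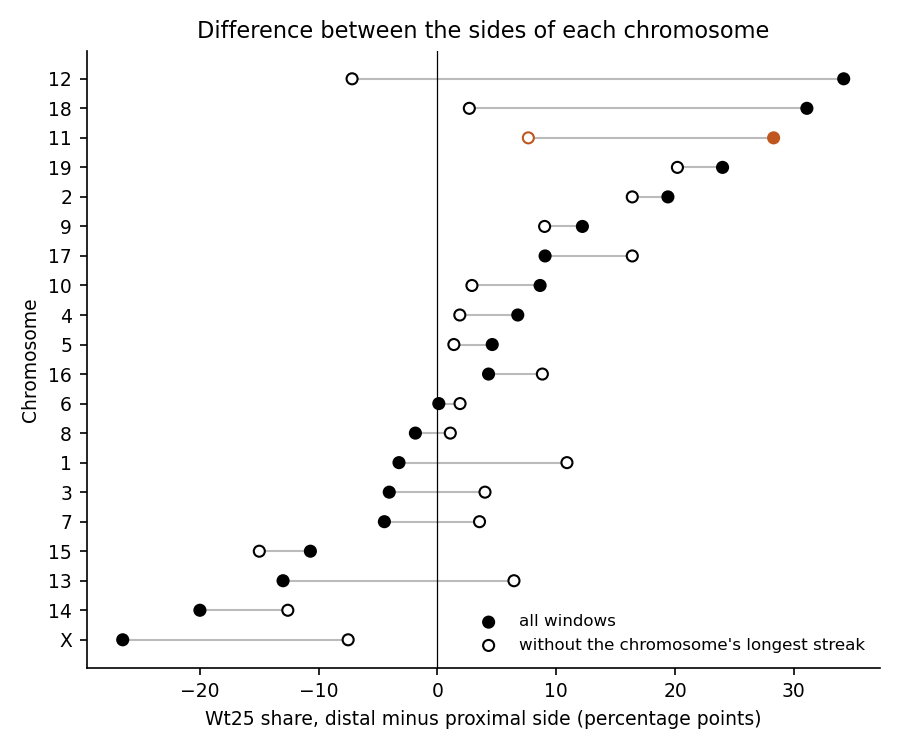
Wt25 share of the distal side minus that of the proximal side, in percentage points, for the 20 chromosomes with 100 or more windows, with all windows (filled) and without each chromosome's own longest streak of one direction (open); chromosome 11 is orange. The value of chromosome 11 falls from 28.3 to 7.65, and the range over the other chromosomes narrows from -26.5 to 34.2 to -15.0 to 20.2.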

How the data were processed

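The members, the gene lists and the settings were chosen with earlier results of these data known. For 3 5hmC-DIP libraries per line, the authors kept reads that STAR placed once in GRCm38 and took out duplicates (Picard). MEDIPS then compared the lines in 200 bp bins (*P* under 0.05, fold change of at least 1). Bins in IgG-DIP peaks, in tandem repeats or of low complexity were dropped, and HOMER gave the nearest gene. Versions are not given in the sources used here. The deposited files hold only positions in bp of windows, 198 bp each, and a gene identifier, with no signal, score, fold change or *P*-value. Of the 24 samples, input, H3K27ac, MNase and RNA-seq libraries were not analysed here.

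Windows were placed on GRCm38.p6 by their midpoint. Features came from curated RefSeq transcripts in this order of priority: promoter (1000 bp before to 100 bp after a start), termination site, exon by kind, intron, intergenic. Genes were named by a rule: the 6 with most windows inside for each side and direction, those with at least 2 windows of each direction, and up to 4 members of each list. *Rtn4*, *Flt4*, *Actr2*, *Spred2*, *Osm* and the smaller genes of the streak were named after their values had been seen. Windows and a gene list that these rules would also give are in part not reported here. Of the listed genes, 2 were not found on the chromosome. The best boundary maximized the binomial likelihood of a change in the Wt25 share with at least 10 windows on each side. No test was run, because the rule used direction and position. Functions were tested on simulated data. The tools were pandas 2.3.3, numpy 2.4.6, numba 0.67.0 and matplotlib 3.10.9 in Python 3.11.15.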

Additional observations from a re-analysis of the deposited data

How the results depend on the processing

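The Wt25 share of the proximal side moved beyond its interval, from 44.3%, to 50.3% with windows within 1 kb joined, 54.6% without dense runs, 57.2% with 1 count per deposited gene and direction, 49.5% with the boundary 5 Mb nearer the end, 51.9% with the boundary at the median window and, chosen after seeing the data, 65.0% without the longest AA10 streak. The AA10 majority was thus lost in 5 of these 6 settings. The difference between the sides became 21.0, 17.3, 8.03, 21.9, 20.5 and 7.65 percentage points in the same settings and kept its direction. The share of the distal side moved only to 65.2%, with 1 count per gene and direction. The best boundary moved from 5.45 to 50.36 Mb without the streak. In segments of 10 Mb, 2 had an AA10 majority, against 8 in segments of 5 Mb. The remaining alternatives (touching windows joined, windows with few repeat bases or with a gene identifier, the boundary 5 Mb nearer the start, and equal weights of GC classes) left these values within their intervals. Taking the deposited gene identifier as being in a gene raised the shares in genes to between 94.8% and 98.1%, because HOMER assigns the nearest gene at any distance. No paired analysis was possible because the lists hold no value per library, and no stricter threshold, read depth or left-out library could be examined for the same reason.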
